A study of Drosophila melanogaster and Drosophila simulans and Drosophila yakuba with 30 samples.

Results

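The binding intervals of the Sox proteins Dichaete and SoxNeuro (SoxN) were compared within the genome of Drosophila simulans. Every interval of the Dichaete-Dam and SoxN-Dam lists called on the D. simulans assembly itself (droSim1) was taken. They number 35042 of the 197964 intervals in the 12 lists of the series, with 17833 for Dichaete and 17209 for SoxN. Neither list was translated to another genome, and both name the random and unplaced sequences of droSim1.

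Dichaete and SoxN are group B Sox proteins, transcription factors that bind DNA through a high mobility group (HMG) domain. In D. melanogaster both act in the central nervous system as it forms in the embryo, where they can partly replace each other, and Dichaete also acts in segmentation, the midline and the hindgut. DamID records where such a protein has been: it is fused to the bacterial Dam methylase, which methylates the adenine of GATC sites close to the places the fusion visits. DpnI cuts methylated GATC only, so the recovered fragments run from one GATC site to another, and every boundary described here is a boundary of such a fragment. A fusion is compared with Dam alone, which marks accessible chromatin.

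Embryos of 0 to 16 h of the D. simulans strain w[501] carried 1 of 3 piggyBac transgenes, Dichaete-Dam, SoxN-Dam or Dam-only, with 3 biological replicates of each (9 of the 30 libraries). The fusions carry the D. melanogaster coding sequences, and a UAS array with an Hsp70 promoter precedes each construct. The leader differs, from kayak in Dichaete-Dam and from SV40 in SoxN-Dam and Dam-only. A difference between the lists can therefore come from the protein or from its transgenic line, and these cannot be told apart. The paper reports that libraries were run on a MiSeq or a HiSeq, with reads of different length. Its methods do not say which library went to which, and any part of this in a difference between the lists was not tested. Whole embryos mix all cell types, and no list says in which cells a fragment was methylated.

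An interval entered a list when its GATC fragments had more reads in the 3 fusion libraries than in the 3 Dam-only libraries at an adjusted p-value under 0.05 in the test run by the authors. Enriched fragments within 100 bp were merged, and no neighbouring intervals of a list lie closer than 101 bp. For each interval the lists give the sequence, the start, the end and the number of fragments merged. They pool the replicates and hold no read counts, so there is no replicate spread to set a difference against, and the depth behind an interval is unknown. The 95% Wilson intervals given for shares cover counting error only and treat neighbouring intervals as independent. The same 3 Dam-only libraries served both lists, which therefore share the noise of these controls.

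The SoxN list had fewer intervals, but these were longer and covered more sequence. Dichaete intervals had a median length of 535 bp (quartiles 318 and 994 bp) and covered 14.3 Mb, and SoxN intervals had a median of 607 bp (342 and 1165 bp) and covered 16.5 Mb. Dichaete intervals held 54971 fragments, a mean of 3.08 each, and SoxN intervals held 59938, a mean of 3.48. The surplus of SoxN was proportionally greatest among the largest intervals: 40 Dichaete and 153 SoxN intervals held at least 20 fragments, while 675 Dichaete (3.79%) and 953 SoxN intervals (5.54%) held at least 10. At the other end, 34.8% of Dichaete and 32.0% of SoxN intervals consisted of a single fragment. SoxN had the longer median and the larger number of covered base pairs on each of the 17 sequences, whereas it had more intervals on only 7 of them.

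Most intervals of either factor were commonly bound. Sharing 1 bp was enough for 2 intervals to count as overlapping. Of the Dichaete intervals 11829 (66.3%, 65.6 to 67.0%) were overlapped by SoxN, and of the SoxN intervals 11301 (65.7%, 65.0 to 66.4%) were overlapped by Dichaete. The remaining 6004 Dichaete and 5908 SoxN intervals were uniquely bound. As a scale for these shares, the D. melanogaster lists at the same threshold overlapped for 85.5% of Dichaete and 80.1% of SoxN intervals. Those lists are larger, with 20848 Dichaete and 22952 SoxN intervals. At an adjusted p-value under 0.01 they held 17530 and 17833 intervals, of which 80.1% and 82.7% were overlapped. The depth of the libraries behind the lists of the 2 species is unknown. Its part in this difference, and that of list size, was not tested.

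Counted in base pairs the lists shared less. Together they covered 21.8 Mb, of which 9.04 Mb (41.4%) lay in both. The shared part was 63.1% of the Dichaete base pairs and 54.7% of the SoxN base pairs. A further 5.29 Mb was covered by Dichaete alone and 7.49 Mb by SoxN alone. Such sequence is of 2 kinds, either uniquely bound intervals or the flanks by which an overlapped interval reaches beyond its partner. Flanks made up 41.9% of the Dichaete-only base pairs and 52.8% of the SoxN-only base pairs, so more than 1 in 2 base pairs covered by SoxN alone belonged to an interval that Dichaete also bound. In D. melanogaster, where the lists cover more sequence (21.9 Mb for Dichaete and 21.3 Mb for SoxN), 68.9% of the covered base pairs were shared. At an adjusted p-value under 0.01 it was 65.6%, with 17.0 Mb for Dichaete and 14.8 Mb for SoxN.

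**Figure D1:**
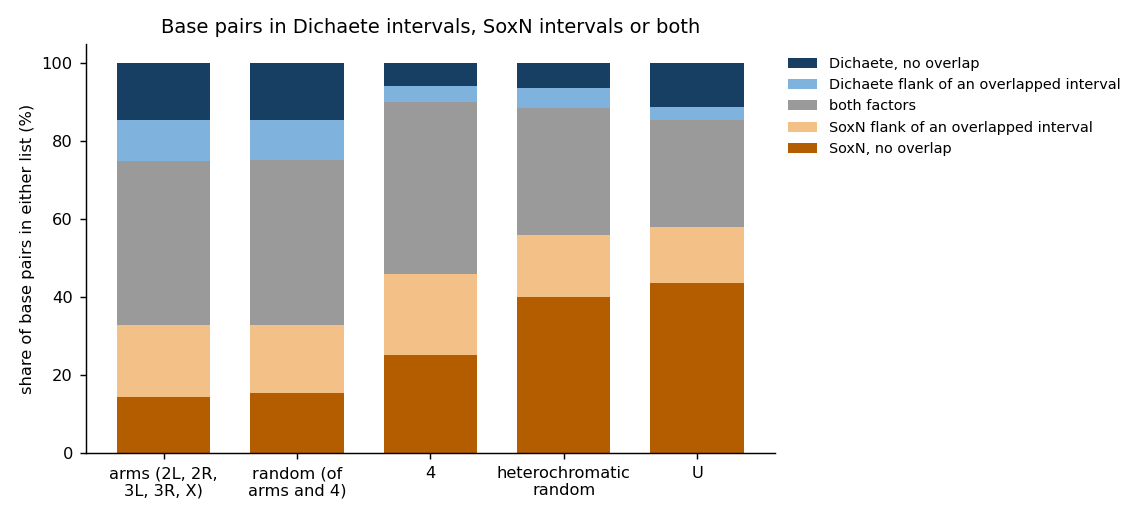
Base pairs covered by either list, divided into Dichaete intervals without an overlap, Dichaete flanks, sequence in both lists, SoxN flanks and SoxN intervals without an overlap, as stacked shares (%) for 5 classes of sequence. SoxN intervals without an overlap take 14.5% of the covered base pairs on the arms, against 40.0% on the heterochromatic random sequences and 43.8% on U.

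Merging the 2 lists gave 22764 regions. Dichaete alone bound 6004 of these (26.4%), SoxN alone 5908 (26.0%) and both factors 10852 (47.7%). In 9679 regions 1 Dichaete interval met 1 SoxN interval, and these are called one-to-one pairs here. In 755 regions a single SoxN interval spanned several Dichaete intervals, 1689 in all, and the Dichaete intervals added up to 56.1% of the SoxN base pairs. The opposite arrangement was less frequent, with 382 Dichaete intervals spanning 792 SoxN intervals. Another 36 regions chained several intervals of each list. A Dichaete interval overlapped at most 4 SoxN intervals, and a SoxN interval at most 7 Dichaete intervals.

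The one-to-one pairs were used to ask how closely the limits of a region match between the factors. In 3237 of the 9679 pairs (33.4%, 32.5 to 34.4%) Dichaete and SoxN had the same start and the same end, to the base. In a further 4332 (44.8%) exactly 1 of the boundaries was the same, and in 2110 (21.8%) neither was. Starts coincided in 56.0% of pairs and ends in 55.6%, nearly the same share on either side. A pair with exactly 1 shared boundary is nested by definition, so only the 2110 pairs with neither boundary the same could be staggered. Among these, Dichaete lay inside SoxN in 975 and SoxN inside Dichaete in 681. The counts of nested pairs that follow include the pairs with 1 shared boundary. The Dichaete interval lay within the SoxN interval in 3313 pairs (34.2%), and the SoxN interval within the Dichaete interval in 2675 (27.6%). Staggered pairs, in which each interval extends past the other on a different side, numbered 454 (4.69%), with Dichaete starting first in 219 and SoxN in 235.

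Differing boundaries lay mostly within 1000 bp of each other, and their distances were on the scale of a GATC fragment (a mean of 261 bp of interval per fragment for Dichaete and 276 bp for SoxN). Starts differed in 4256 pairs by a median of 340.5 bp (quartiles 149 and 638 bp), and ends in 4296 pairs by a median of 344 bp (157 and 648.5 bp). Dichaete reached farther out at 1895 starts and 1915 ends, and SoxN at 2361 starts (55.5%) and 2381 ends (55.4%). The distance was also the smaller where Dichaete extended farther, at medians of 318 bp (starts) and 299 bp (ends), against 361 and 379 bp where SoxN did. Offsets of more than 1000 bp made up 12.1% of differing starts and 12.9% of differing ends. The greatest reach of Dichaete past SoxN was 4387 bp at a start and 4020 bp at an end, and that of SoxN past Dichaete 7113 and 6673 bp.

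**Figure D2:**
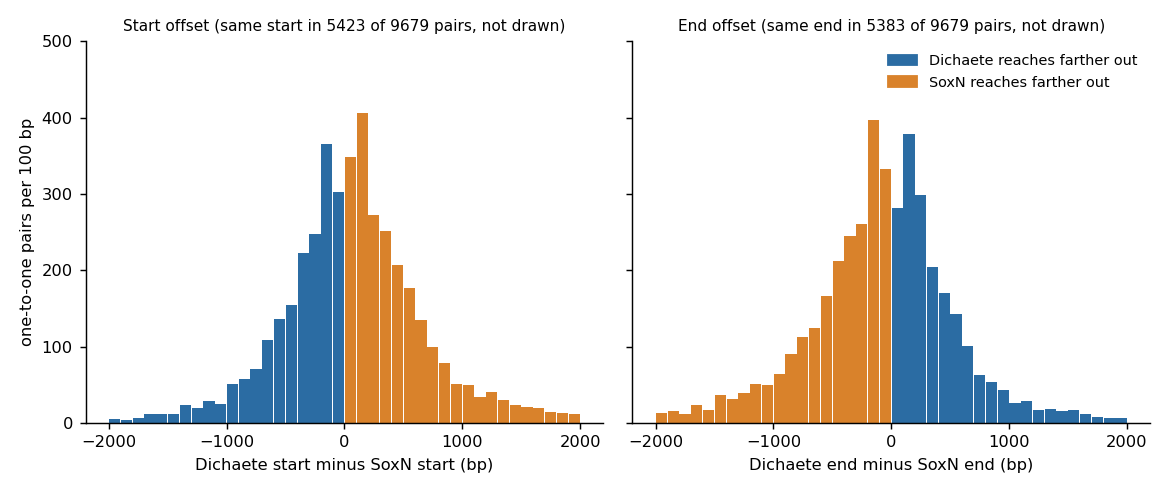
Offsets between the boundaries of one-to-one pairs, drawn as the number of pairs in each 100 bp of Dichaete minus SoxN position (bp), for starts (left) and ends (right), within 2000 bp. Blue bars are pairs in which Dichaete reaches farther out and orange bars those in which SoxN does. Both panels fall off on either side of 0, and the orange side is the larger, with 2361 of 4256 differing starts and 2381 of 4296 differing ends.

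Among the pairs with 1 shared boundary, the longer interval usually exceeded its partner by a single fragment. Dichaete was the longer in 1994 pairs, by 1 fragment in 1206 of them (60.5%), by 2 in 381 and by 3 or more in 385, with a median extension of 314 bp. SoxN was the longer in 2338 pairs, by 1 fragment in 1523 (65.1%), by 2 in 422 and by 3 or more in 381, with a median of 363 bp. The most frequent difference in these pairs was therefore 1 GATC fragment at 1 edge that was merged into the interval of 1 factor and not into that of the other.

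Fragment numbers gave the same picture as the boundaries, which largely determine them, so they are not a separate line of support. Both intervals of a pair held the same number of fragments in 3378 pairs (34.9%), Dichaete held more in 2818 (29.1%) and SoxN held more in 3483 (36.0%). In 6303 pairs (65.1%) the numbers differed by at most 1, and in 715 (7.39%) by 5 or more. In 1106 pairs both intervals were single fragments. These have to be the same fragment, since fragments between GATC sites do not overlap each other. A single Dichaete fragment met a longer SoxN interval in 1338 pairs, and a single SoxN fragment a longer Dichaete interval in 1045. Identical boundaries did not always mean identical content: in 78 of the 3237 pairs with the same start and end the fragment numbers differed, Dichaete holding more in 31 and SoxN in 47.

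**Figure D3:**
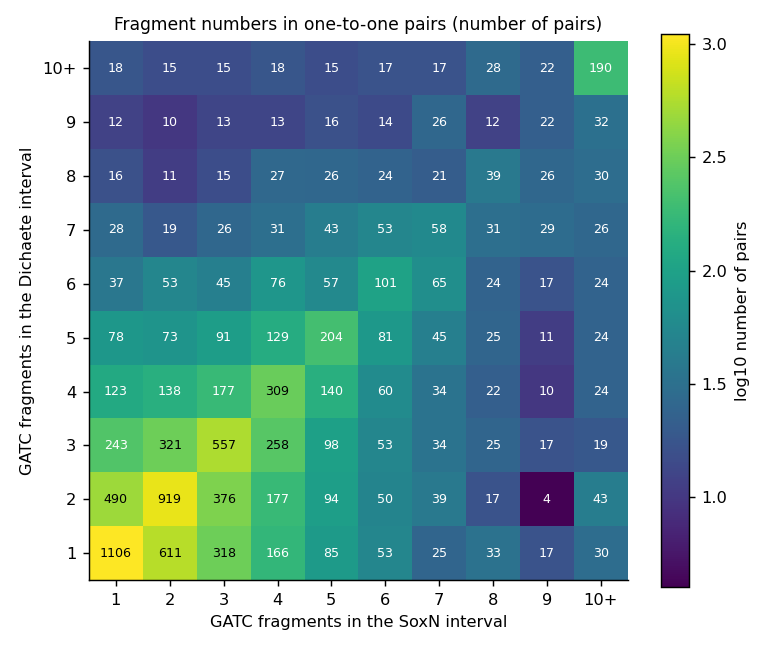
Number of one-to-one pairs for each combination of the Dichaete fragment number (vertical axis) and the SoxN fragment number (horizontal axis), with 10 or more fragments together and colour on a log10 scale. Pairs are densest along the diagonal, with 1106 pairs of single fragments, and the cells to the right of it (SoxN more, 3483 pairs overall) hold more than those to the left (Dichaete more, 2818 pairs).

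Pairs that match to the base were not confined to short intervals. Of the 3237, 472 held at least 5 fragments and 64 at least 10. The one with the most fragments lay on 3L from 17321619 to 17326465 (droSim1), 4847 bp that both lists give as a single interval of 22 fragments. The next was on 3L from 10731264 to 10735579 (4316 bp, 19 fragments), and the following one on 3R from 4027441 to 4033058 (5618 bp, 18 fragments). No genes are assigned to any interval here, since no annotation of droSim1 was used.

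The share of intervals overlapped climbed with the number of fragments in both lists. For Dichaete it was 47.8% at 1 fragment, 64.6% at 2, 74.8% at 3, 80.9% at 4 to 5, 90.2% at 6 to 9 and 94.5% at 10 to 19, and all 40 intervals of 20 or more were overlapped. For SoxN it was 43.8%, 63.8%, 72.8%, 80.1%, 88.2% and 93.9% over the same classes, and 152 of the 153 largest were overlapped. A longer interval meets another more easily for its length alone, and no allowance was made for this. The covered fraction of base pairs separated the factors more than the overlap did, and it was higher for Dichaete in every class. Over the whole lists this has to be so, because the base pairs in both lists are the same for either factor and the Dichaete list covers less sequence. No allowance was made for this within the classes. At 1 fragment it was 48.5% for Dichaete and 42.3% for SoxN, and at 10 to 19 fragments 70.6% and 57.3%. Dichaete intervals of 20 or more fragments were covered by SoxN over 74.8% of their base pairs, and SoxN intervals of that size by Dichaete over 52.6%.

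Uniquely bound intervals were shorter than overlapped ones, which restates the climb above under the same limit on length. The median length of uniquely bound intervals was 386 bp for Dichaete and 430 bp for SoxN, against 671 and 751 bp for overlapped intervals of the same lists. Single fragments made up 53.9% of uniquely bound Dichaete and 52.3% of uniquely bound SoxN intervals, against 25.1% and 21.4% of the overlapped ones. Intervals of 5 or more fragments without any overlap were still found, 383 for Dichaete (6.38%, against 26.7% of overlapped ones) and 460 for SoxN (7.79%, against 30.4%). The largest of them, chosen after their values were seen, held 17 fragments for Dichaete, on 3R from 22753659 to 22757375 and on 2L from 13561353 to 13564538. For SoxN the largest held 26 fragments, on X from 3465026 to 3468643, and 19 fragments, on 3R from 17155128 to 17158096. The nearest interval of the other factor lay 350 bp and 15652 bp from these Dichaete intervals, and 987 bp and 3708 bp from these SoxN intervals.

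Uniquely bound intervals often had the other factor nearby. Of the Dichaete ones 316 (5.26%) abutted a SoxN interval with no base in common, 1610 (26.8%) had 1 within 1000 bp and 91.7% within 10000 bp. Of the SoxN ones 256 (4.33%) abutted a Dichaete interval, 1313 (22.2%) had 1 within 1000 bp and 83.0% within 10000 bp. The median distance was 2149 bp for Dichaete and 2821 bp for SoxN. Uniquely bound SoxN intervals thus stood farther from the other factor. The farthest lay 155099 bp away, on the unplaced sequence U, against 52906 bp for Dichaete, on an arm. On the arms alone the medians were closer, at 2073 bp for Dichaete and 2375 bp for SoxN, and the farthest SoxN interval lay 76119 bp away.

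The longest intervals give concrete examples. The longest Dichaete interval ran on 3L from 286545 to 296406 (9862 bp) with 44 fragments, the most of any Dichaete interval. A single SoxN interval of 37 fragments, from 287092 to 295446, lay inside it and covered 84.7% of it. The second longest, on 2R from 5060205 to 5068762 with 17 fragments, shared its start with a SoxN interval of 21 fragments that ended farther out, at 5068832. The third longest lay on X_random from 4371180 to 4379685 with 20 fragments, and a SoxN interval of 13 fragments covered 59.3% of it. Each of the 3 therefore met exactly 1 SoxN interval, which did not hold for large Dichaete intervals in general. Of the 40 with 20 or more fragments, 19 overlapped several SoxN intervals. Among the 153 SoxN intervals of that size, 123 overlapped several Dichaete intervals.

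The longest SoxN intervals were broken up in the Dichaete list. The longest ran on 3R from 6306660 to 6324319 (17660 bp) with 60 fragments, and 4 Dichaete intervals of 10, 4, 6 and 5 fragments covered 46.0% of it. On 2R_random the interval from 1280354 to 1296385 (16032 bp, 53 fragments) met 4 Dichaete intervals of 8, 14, 1 and 3 fragments, which covered 36.2%. On 3L the interval from 14264189 to 14279654 (15466 bp, 56 fragments) met 7, the most of any interval, of 9, 3, 1, 1, 4, 1 and 10 fragments, covering 41.5%. The SoxN intervals with the next most partners lay on 3R. The one from 24800638 to 24813509 held 83 fragments, the most in either list, and 6 Dichaete intervals of 2 to 8 fragments covered 28.7% of it. The other, from 27134903 to 27146973, held 67 fragments and met 6 Dichaete intervals with 37 fragments in all, of which the largest held 20, covering 53.7%.

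Dichaete intervals split in the SoxN list were smaller. The one on 2L from 10841735 to 10849337 (7603 bp, 39 fragments) met 4 SoxN intervals of 11, 2, 8 and 1 fragments, which covered 57.5% of it. On 2R the interval from 2580372 to 2585968 (5597 bp, 19 fragments) met 4 of 1, 2, 3 and 3 fragments, covering 39.3%. On 3R the interval from 4670679 to 4678048 (7370 bp, 15 fragments) met 3 of 1, 1 and 6 fragments, covering 73.6%, and it shared its outer limits with the first and the last of them.

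The 3 longest intervals of each factor without any overlap held between 4 and 9 fragments, fewer than the shorter ones named above for their fragment number. For Dichaete they lay on 3R from 19857622 to 19862475 (4854 bp, 5 fragments), on 2L from 13700666 to 13705204 (4539 bp, 4 fragments) and on 3R from 10227181 to 10231377 (4197 bp, 5 fragments), at 2099, 2906 and 771 bp from SoxN. For SoxN they lay on 4 from 658836 to 664184 (5349 bp, 9 fragments), on X from 2927915 to 2933133 (5219 bp, 4 fragments) and on 2L from 21681210 to 21686361 (5152 bp, 5 fragments), at 3282, 5458 and 5680 bp from Dichaete.

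The chromosome arms and the remaining sequences differed in how the factors compared. In droSim1 the sequences named random belong to a chromosome but have no place on it, those with an h in the name are heterochromatic, and U holds contigs assigned to no chromosome. Heterochromatin is the compact, repeat-rich part of the genome around the centromeres, and the small chromosome 4 is rich in it. On the 5 arms (2L, 2R, 3L, 3R and X) there were 15616 Dichaete and 14338 SoxN intervals, with 66.0% and 68.6% overlapped. On the 4 heterochromatic random sequences there were 230 Dichaete and 428 SoxN intervals, with 77.8% and 41.1% overlapped, and on U 569 and 1051, with 67.3% (63.4 to 71.0%) and 35.5% (32.7 to 38.4%) overlapped. SoxN therefore had 1.85 times as many intervals as Dichaete over the heterochromatic and unplaced sequences combined, and Dichaete had more on each of the 5 arms.

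Since overlaps are mostly one-to-one, the numbers of overlapped intervals in the lists have to be close (562 for Dichaete and 549 for SoxN here), and a surplus of intervals has to fall among the uniquely bound ones. The gap between the shares overlapped thus restates the gap in numbers. On the heterochromatic random sequences and U together 237 Dichaete and 930 SoxN intervals were uniquely bound. These sequences held 4.48% of the Dichaete list and 8.59% of the SoxN list, and without them 66.1% of Dichaete and 68.4% of SoxN intervals were overlapped, so that the order of the 2 shares turned round. SoxN covered 2.02 times the Dichaete base pairs on the heterochromatic random sequences and 2.04 times on U, against 1.12 times on the arms. Shared base pairs made up 32.4% and 27.4% of the covered sequence on these, against 42.1% on the arms. Single-fragment intervals were more frequent on U than on the arms in both lists, at 42.5% against 34.2% for Dichaete and 42.7% against 31.0% for SoxN.

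**Figure D4:**
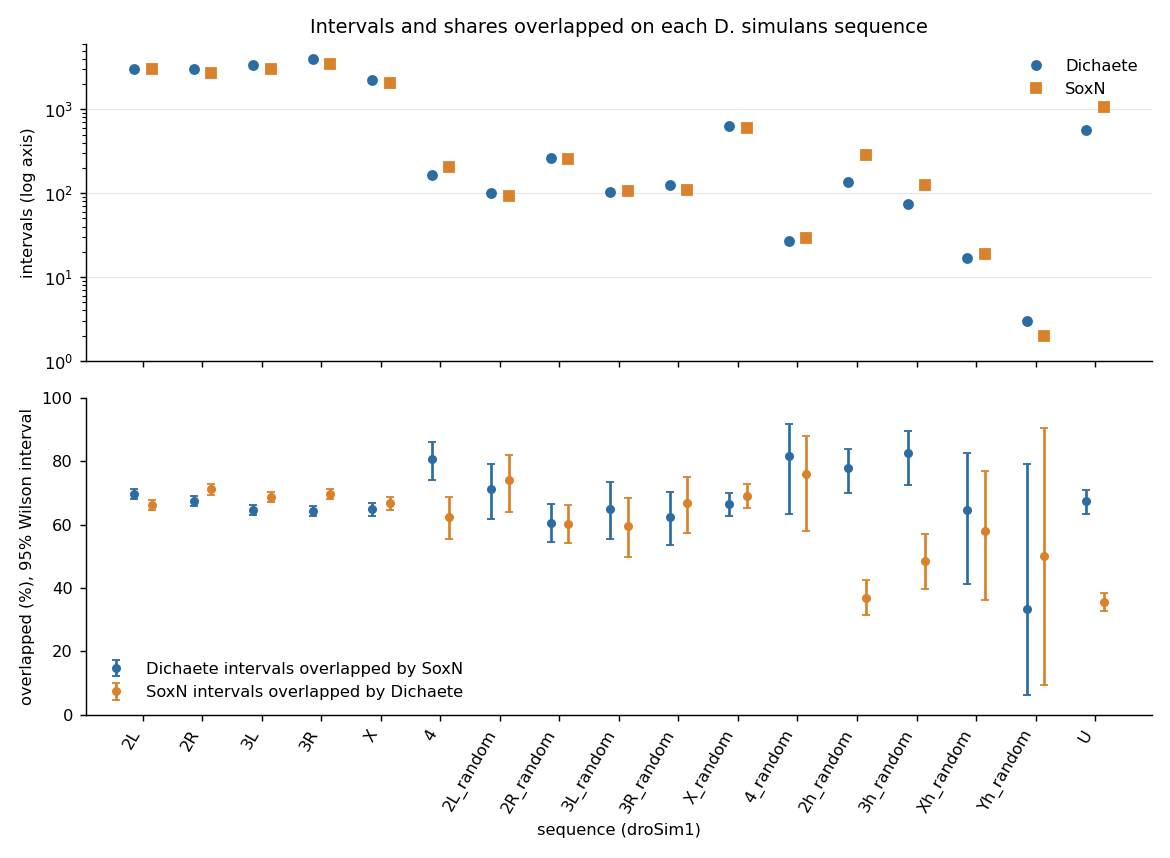
Intervals on each of the 17 droSim1 sequences (upper panel, log axis) and the share of them overlapped by the other factor (lower panel, %, bars are 95% Wilson intervals), for Dichaete (blue) and SoxN (orange). On 4, 2h_random, 3h_random and U the Dichaete share is 18.4 to 41.0 percentage points above the SoxN share with bars that do not meet, and SoxN has more intervals there. The bars do not meet on 4 of the arms either, with the Dichaete share 3.48 points higher on 2L and the SoxN share higher on 2R, 3L and 3R.

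Single sequences followed this division. On 2h_random 135 Dichaete intervals were overlapped at 77.8% (70.1 to 84.0%) and 283 SoxN intervals at 36.7% (31.3 to 42.5%). On 3h_random 75 Dichaete intervals were overlapped at 82.7% (72.6 to 89.6%) and 124 SoxN intervals at 48.4% (39.8 to 57.1%). Xh_random, with 17 Dichaete and 19 SoxN intervals, and Yh_random, with 3 and 2, held too few to tell the shares apart. Chromosome 4 went the same way as the heterochromatic sequences, with 165 Dichaete intervals overlapped at 80.6% (73.9 to 85.9%) and 204 SoxN intervals at 62.3% (55.4 to 68.6%), and SoxN covered 1.66 times the Dichaete base pairs. The 6 random sequences of the arms and of chromosome 4 pooled to 1253 Dichaete and 1188 SoxN intervals, with 65.4% and 66.7% of them overlapped, and SoxN covered 1.12 times the Dichaete base pairs. X_random made up 638 of these Dichaete and 596 of these SoxN intervals, and the ratio of base pairs varied among the 6, between 1.04 on 2R_random and 1.34 on 3R_random.

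Uniquely bound SoxN intervals lay farthest from Dichaete on U and on the heterochromatic random sequences. Sequence there has no known place on a chromosome, so these are distances in the assembly and need not be distances in the genome. On U the median distance to the other factor was 3446.5 bp for uniquely bound Dichaete and 8582.5 bp for uniquely bound SoxN intervals, and 37 Dichaete (19.9%) and 304 SoxN intervals (44.8%) had none within 10000 bp. On the heterochromatic random sequences the medians were 2925 and 8305 bp. On the arms 7.70% of uniquely bound Dichaete and 11.7% of uniquely bound SoxN intervals had none within that distance. On chromosome 4 the median distance was 1183.5 bp for uniquely bound Dichaete and 2209 bp for uniquely bound SoxN intervals, against 2073 and 2375 bp on the arms. All 32 uniquely bound Dichaete intervals there had SoxN within 10000 bp, and 9.09% of the 77 uniquely bound SoxN intervals lacked Dichaete within it. The SoxN intervals thus stood farther from the other factor than the Dichaete ones there too, but not farther than on the arms. Dichaete had fewer intervals than SoxN on U, and the part of these numbers in the distances was not tested.

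Among the arms, 2L stood apart. Dichaete and SoxN had almost equal numbers of intervals there, 3011 and 3006, and it was the only arm on which the Dichaete share overlapped (69.7%) was above the SoxN share (66.2%). Its last complete bin of 1 Mb added to both, with 83.6% of Dichaete and 48.1% of SoxN intervals overlapped in it. Without this bin 2L held 2895 Dichaete and 2825 SoxN intervals. On the other arms 64.2 to 67.5% of Dichaete and 66.7 to 71.2% of SoxN intervals were overlapped. SoxN covered 1.25 times the Dichaete base pairs on 2L, against 1.07 to 1.10 times on the other arms. Pairs with the same start and end took 32.1 to 34.6% of one-to-one pairs on all 5 arms.

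Density along the sequences was compared in 135 complete bins of 1 Mb. Sequence rich in one factor was rich in the other: over all bins the covered base pairs correlated with a Pearson coefficient of 0.867 and a Spearman coefficient of 0.790, and over the 107 bins of the arms with 0.701 and 0.641. These are descriptions across neighbouring bins that share Dam-only libraries and the spacing of GATC sites. On the arms the median bin held 115.7 kb in Dichaete intervals and 127.8 kb in SoxN intervals. Dichaete covered more in 33 of the 107 bins and SoxN in 74, although Dichaete had the larger number of intervals in 87 and SoxN in 18. SoxN covered more in all 15 bins of U, with medians of 24.7 kb for Dichaete and 44.3 kb for SoxN, and in all 4 bins of the heterochromatic random sequences.

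**Figure D5:**
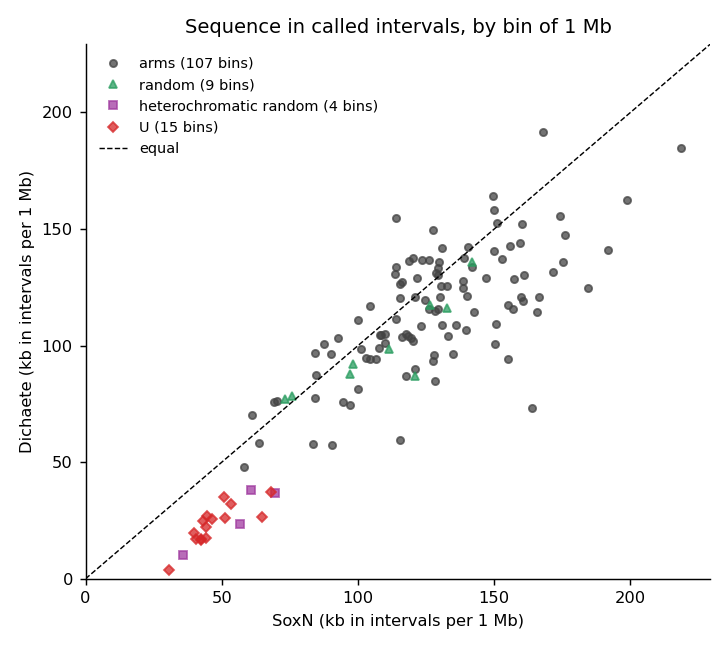
Sequence in Dichaete intervals (vertical axis) against sequence in SoxN intervals (horizontal axis), in kb per bin of 1 Mb, for 135 bins marked by class of sequence, with a dashed line where they are equal. All 15 bins of U and all 4 heterochromatic random bins lie below the line, and 33 of the 107 arm bins lie above it.

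By the difference in covered base pairs, the bins that departed most from equality lay on the arms, whereas by ratio the greatest departure was in a bin of U, where Dichaete covered 3.79 kb and SoxN 30.6 kb. The largest excess of SoxN in base pairs was at the last complete bin of 2L, from 21000001 to 22000000, with 73.0 kb in 116 Dichaete intervals and 163.9 kb in 181 SoxN intervals. There 83.6% of Dichaete and 48.1% of SoxN intervals were overlapped, and 19 Dichaete and 94 SoxN intervals were uniquely bound. The centromere of this arm lies beyond its high-coordinate end. The last complete bin of 3L, likewise the end toward the centromere, held 57.3 kb in 97 Dichaete intervals and 90.6 kb in 132 SoxN intervals, with 72.2% and 53.0% overlapped. Of the 10 complete bins at the ends of arms SoxN covered more in 8, against 74 of all 107 arm bins. The 8 were the first and last bins of 2L, 3L and X and the first bins of 2R and 3R. Dichaete covered more in the last bins of 2R and 3R. The first bins of 2L, 3L and X and the last bins of 2R and 3R lie at the ends away from the centromere. There SoxN covered 1.29 (2L), 1.18 (3L), 1.36 (X), 0.85 (2R) and 0.90 (3R) times the Dichaete base pairs. At the ends toward the centromere SoxN covered more on every arm, at 2.24 (2L), 1.58 (3L), 1.24 (X), 1.31 (2R) and 1.22 (3R) times. Any part of the centromere in this was not tested. With the last complete bin left out, SoxN covered 1.21 times the Dichaete base pairs on 2L. The next largest SoxN excesses were in the interior of 3L, with 94.4 kb of Dichaete and 154.9 kb of SoxN between 12000001 and 13000000, and with 124.9 and 184.5 kb between 14000001 and 15000000, which holds the SoxN interval that met 7 Dichaete intervals.

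The largest excess of Dichaete in base pairs was on 3L from 7000001 to 8000000, with 154.8 kb in 208 Dichaete intervals and 113.9 kb in 126 SoxN intervals. Of these 114 Dichaete and 35 SoxN intervals were uniquely bound, and only 45.2% of Dichaete intervals were overlapped, against 72.2% of SoxN intervals. It was followed by 2R from 8000001 to 9000000, with 191.8 kb of Dichaete and 168.0 kb of SoxN, and by 2R from 18000001 to 19000000, with 149.6 and 127.5 kb. These 3 bins were picked as the extremes of 135 and no error can be given for them from pooled lists.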

How the data were processed

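DamID-seq libraries of D. simulans embryos (3 Dichaete-Dam, 3 SoxN-Dam, 3 Dam-only) were analysed through the 2 interval lists that the authors called in droSim1 coordinates. According to the methods and the submitters' processing notes, the authors trimmed reads with cutadapt, mapped them with Bowtie2, extended them to 200 bp, counted them on GATC fragments, compared each fusion with Dam-only by DESeq2 1.6.1 (log2 fold change above 0, adjusted p-value under 0.05) and merged enriched fragments within 100 bp. The deposited lists give positions and a whole number without a header, which was read as the number of merged fragments because of its values. They hold no read counts, so the depth per library and the spread between replicates are unknown and no test was made.

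Overlaps (from 1 bp), base pairs, offsets and 1 Mb bins were computed with Python 3.11.15, SciPy 1.17.1, NumPy 2.4.6 and pandas 2.3.3, with figures from Matplotlib 3.10.9. Starts are given 1-based. The functions were tested on simulated lists. Intervals named were the 3 longest of each factor, the 3 longest without an overlap, the 3 with the most partners, the 3 largest identical pairs and, for each factor, the 3 bins with the largest excess. The comparison, lists and rules were chosen with earlier results of these data known. Alternatives changed the smallest overlap, the sequences, a length or fragment minimum, the joining of gaps and the coordinates used. No sequence or gene is given, because no genome or annotation of droSim1 was used here.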

Additional observations from a re-analysis of the deposited data

How the results depend on the processing

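Of 44 values recomputed under another setting, 19 stayed within the 95% Wilson interval of the reported value and 25 moved out of it. The width of this interval depends on the number counted, so the tally does not measure how large a change is. For shared base pairs it takes each base pair as independent and runs only from 41.41 to 41.45%, so moving out of it says little. The shares of overlapped Dichaete and SoxN intervals became 64.9% and 64.4% when at least 100 bp had to be shared, 57.3% and 51.5% when at least 50% of the interval had to be covered, 70.3% and 68.2% when gaps of up to 1000 bp were joined, and 68.1% and 67.2% when touching intervals counted, a setting chosen after seeing the data. On the main sequences the shares were 66.2% for Dichaete and 68.5% for SoxN, and in the lists translated to dm3 66.8% and 68.1%, so that in both settings the SoxN share was the higher and only it had moved. It also moved, to 60.4%, among intervals of at least 500 bp and, to 63.9%, among those of at least 2 fragments. Shared base pairs became 42.1% on the main sequences, 38.6% from 500 bp, 39.6% from 2 fragments, 42.4% with gaps joined and 42.7% in the translated lists. Pairs with the same start and end became 46.2% with 50% of both intervals shared, 32.1% from 2 fragments and 28.9% with gaps joined, and pairs with the same fragment number 47.0% with 50% shared. Single fragments among uniquely bound Dichaete and SoxN intervals became 42.5% and 37.0% with 50% covered, and 12.7% and 13.4% from 500 bp, a minimum that removes most single fragments.

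No paired analysis was possible because each list pools its 3 replicates, and leaving out a replicate could not be run for the same reason. Intervals just short of the threshold are not in the lists, and their part in the unique intervals was not tested.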
